A study of Saccharomyces cerevisiae BY4741 with 238 samples.

Results

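Trehalose and glycogen are the storage carbohydrates of budding yeast. Transcripts of 10 genes that make or break them down were followed here in Saccharomyces cerevisiae strain BY4741, a MATa laboratory strain. The genes were chosen by name as rows of the deposited expression table, which holds 6717 features. All 10 were found, and all 10 were among the 5015 features with a mean of at least 10 that entered the tests.

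The study sequenced poly(A) RNA from 238 wells of rich-medium cultures grown in gradients of 4 growth inhibitors, alone and in the 6 possible pairs. Cycloheximide blocks translation elongation, LiCl is a lithium salt that gives ionic and osmotic stress, myriocin blocks serine palmitoyltransferase, the entry into sphingolipid synthesis, and the TOR complex 1 inhibitor is rapamycin. A relative growth rate, a final optical density at 600 nm (OD600) and the drug concentrations were given for every well. All wells carried the same strain in YPD, including the drug-free ones.

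Groups were formed from dose and relative growth, where 1 is drug-free growth. Single-drug wells at intermediate growth had a relative growth of 0.35 to 0.66. They numbered 10 for cycloheximide (0.0522 to 0.0764 µg/ml), 10 for LiCl (9235 to 15726 µg/ml), 11 for myriocin (0.349 to 0.51 µg/ml) and 11 for rapamycin (0.00396 to 0.00662 µg/ml). Mildly inhibited single-drug wells numbered 13, 18, 9 and 5 in the same order of drugs. Another 5 wells were near growth arrest under 0.579 to 0.962 µg/ml myriocin, and 14 wells had rapamycin doses too low to slow growth (0.000864 to 0.00271 µg/ml). The mixtures numbered 22 wells for cycloheximide with LiCl, 20 for cycloheximide with myriocin, 19 for cycloheximide with rapamycin, 26 for LiCl with myriocin, 18 for LiCl with rapamycin and 16 for myriocin with rapamycin. Drug-free wells numbered 3 at higher density (OD600 of 1.38 to 1.44) and 8 at lower density (OD600 of 0.553 to 0.781). Cycloheximide, myriocin and rapamycin came from DMSO stocks and LiCl was dissolved in the medium, per the labels' protocols. A robot filled each grid of wells from an overnight culture, so p-values measure the spread between wells.

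In background terms, both storage routes start from glucose 6-phosphate. Phosphoglucomutase and UTP-glucose pyrophosphorylase turn it into UDP-glucose, which trehalose-6-phosphate synthase joins to glucose 6-phosphate and which glycogen synthase adds to growing glycogen chains. Trehalase and glycogen phosphorylase reverse the stores. Yeast cells typically build both when growth slows, nutrients run short or stress sets in, and many of these genes carry the stress response element (STRE), the AGGGG motif bound by the factors Msn2 and Msn4.

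That motif was looked for on both strands, as AGGGG or CCCCT, in the 500 bases before each start codon of the R64 reference (RefSeq), and overlapping matches were counted. Every one of the 10 genes held at least 2 matches, and TPS1 held the most, 6. Of 6006 such windows over the nuclear protein-coding genes, 34.1% held a match and 8.18% held 2 or more. The 6 stretches below are given because the results turn on these genes. Each runs 5′ to 3′ in the direction of its gene, with the motif in capitals.
TPS1, minus strand of chrII:490624-490653: gcaggtcagggcAGGGGctctcAGGGGggc
TPS2, plus strand of chrIV:593573-593602: gggtctgattatAGGGGttagttacgctcc
TPS3, minus strand of chrXIII:793569-793598: gaattaattaatCCCCTtcagcacgcagca
GSY1, minus strand of chrVI:176706-176735: ccacaagtaataCCCCTtggaggatttttc
GSY2, plus strand of chrXII:660508-660537: gaacgcaattcaCCCCTttctttcttatgc
GPH1, plus strand of chrXVI:860937-860966: aggaaataagtaAGGGGtggataattttcg
A match is a description of letters, and binding was not measured. In the same reference each of the 10 coding regions is a single exon. They lie on chromosome II (TPS1, YBR126C), IV (NTH1, YDR001C and TPS2, YDR074W), VI (GSY1, YFR015C), XI (UGP1, YKL035W), XII (GSY2, YLR258W), XIII (TSL1, YML100W, PGM2, YMR105C and TPS3, YMR261C) and XVI (GPH1, YPR160W). The related pairs GSY1 and GSY2, TPS3 and TSL1, NTH1 and NTH2, and PGM1 and PGM2 shared identical coding runs of at most 20, 15, 33 and 23 bases, all shorter than the 50 bp reads.

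Values are a normalised signal with the same distribution in every library, and levels are compared only within a gene. The estimated depth was 568842 reads in the median library (range 64843 to 2017612), and 8 libraries lay under 142210. A gene is said to have risen or fallen, or to be called, only if limma on log2(signal + 1) over all 5015 features gave both an adjusted p (Benjamini-Hochberg) under 0.05 and a 1.5-fold or larger change. Of the genes that mark the other mating type, MF(ALPHA)1 had a median of 0.00418, STE3 of 0.893, SAG1 of 5.06 and MF(ALPHA)2 of 9.78, while the MATa pheromone genes MFA1 and MFA2 had medians of 224 and 150.5. The summed signal of 4 other-mating-type genes lay between 5.5 and 34 in every well, and that of 6 sporulation genes between 14.9 and 74.7.

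The wells of 1 experiment stood apart. An experiment is the plate grid of a drug pair, and in the cycloheximide-LiCl grid 9 of the 10 genes had their lowest drug-free lower-density signal. GPH1, which encodes glycogen phosphorylase, had a drug-free signal of 208 there, against 468 to 763 in the other 7 drug-free lower-density wells. LiCl wells at intermediate growth had a GPH1 signal of 212 and 256 in that grid and of 1025 and 1040 in the LiCl-myriocin grid. The LiCl dose was about 11900 µg/ml in the former and 15726 µg/ml in the latter, so grid and dose are mixed there. Experiment and growth-reference set were therefore terms in the comparisons that drew wells from several experiments. Dividing the absolute by the relative growth rate gives a lower and a higher value in each experiment, and the wells that share a value form a growth-reference set.

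**Figure D1:**
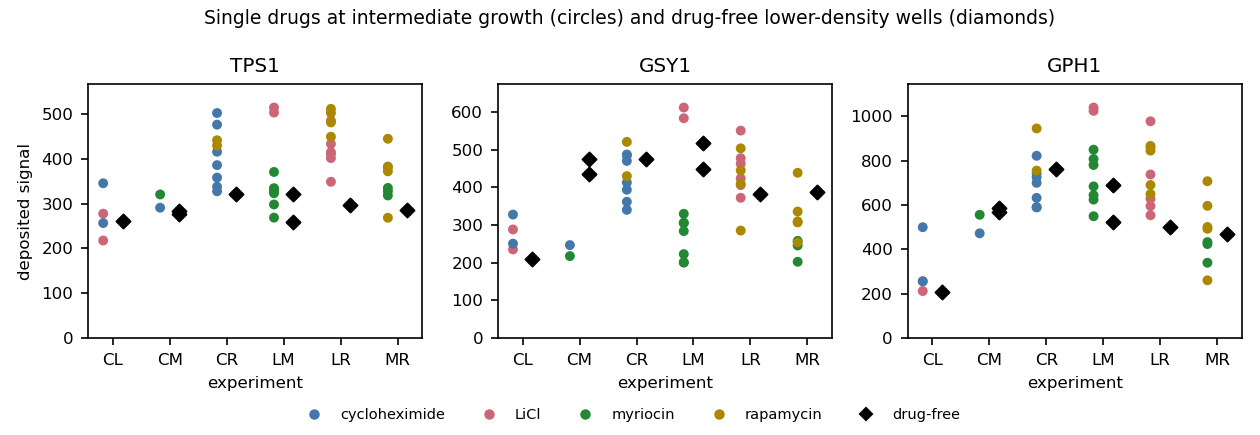
Deposited signal (y axis, linear) of TPS1, GSY1 and GPH1 in single-drug wells at intermediate growth (circles, coloured by drug) and drug-free lower-density wells (black diamonds), by experiment (x axis, named by the initials of its drug pair). In experiment CL the GPH1 circles and the diamond at 208 lie below most wells of the other grids.

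Compared with drug-free growth, slowing growth by a similar amount with 4 drugs left most of these transcripts within 1.5-fold. Under myriocin GSY1 and TPS3 fell, under LiCl TPS2 rose, and no member was called under cycloheximide or rapamycin. The test called 9.25% of all features under myriocin (4.49% lower), 10.5% under LiCl (6.04% higher), 3.05% under cycloheximide and 6.84% under rapamycin. In bulk RNA, fewer cells expressing a gene and less RNA per cell cannot be told apart.

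GSY1, the minor of the glycogen synthase isoforms, had a signal of 200 (lowest), 246 (median) and 330 (highest) in 11 myriocin wells, against 209, 442 and 519 in 8 drug-free wells. The single drug-free well within the myriocin range was that of the cycloheximide-LiCl grid. GSY1 fell by 0.85 on the log2 scale (SE 0.122, adjusted p = 2.67e-08, limma). Within experiments the difference was -1.06, -0.90 and -0.72 in the cycloheximide-myriocin, LiCl-myriocin and myriocin-rapamycin grids. These grids held 1, 7 and 3 of the myriocin wells.

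TPS3, a regulatory subunit of the trehalose synthase complex, had 38.4, 85.5 and 105 in myriocin wells, against 61.3, 109 and 133 in drug-free wells. The groups overlapped. TPS3 fell by 0.62 on the log2 scale (SE 0.116, adjusted p = 2.21e-05, limma), and the within-experiment differences were -1.43, -0.49 and -0.35. The first of these rests on 1 myriocin well, the lowest of the group (38.4), and the others were short of 1.5-fold. With no batch terms the TPS3 change was -0.38, which ended the call. GSY2, the major glycogen synthase, had a log2 difference of -0.54 (SE 0.18, adjusted p = 0.0232) and stayed under the fold limit.

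TPS2, the trehalose-6-phosphate phosphatase, had 194.4, 338 and 550 in 10 LiCl wells, against 154, 248 and 390 in drug-free wells. The groups overlapped. TPS2 rose by a log2 of 0.60 (SE 0.17, adjusted p = 0.00656, limma). Within experiments the difference was 0.46, 1.08 and 0.58 in the grids with cycloheximide, myriocin and rapamycin. Without batch terms it was 0.40 and was not called. The call also ended with an OD600 term (0.57), a pseudocount of 10 (0.58) and all drug-free wells pooled (0.51). TSL1 (log2 difference 0.47, adjusted p = 0.000301), TPS1 (0.37, adjusted p = 0.00525) and NTH1 (0.30, adjusted p = 0.0168) passed the p threshold under LiCl but not the fold limit. In the cycloheximide-LiCl grid TPS1 had -0.08 and NTH1 -0.09, the opposite sign to the other grids. TSL1 is a regulatory subunit of the synthase complex, TPS1 its synthase, and NTH1 the neutral trehalase.

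TPS1 also had a log2 difference of 0.46 (adjusted p = 0.000448) under rapamycin, with values of 269, 442 and 512 in 11 rapamycin wells and 260, 284 and 322 in drug-free wells. All 3 experiments with rapamycin gave a positive difference. GPH1, PGM2 (the major phosphoglucomutase) and UGP1 (UTP-glucose pyrophosphorylase) had fitted differences between -0.17 and 0.30 under all 4 drugs. Under LiCl the experiments differed, and so did their LiCl doses. GPH1 had 0.16, 0.78 and 0.50 in the grids with cycloheximide, myriocin and rapamycin. In the same order PGM2 had 0.12, 0.58 and 0.22, and UGP1 -0.24, 0.69 and 0.29.

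**Figure D2:**
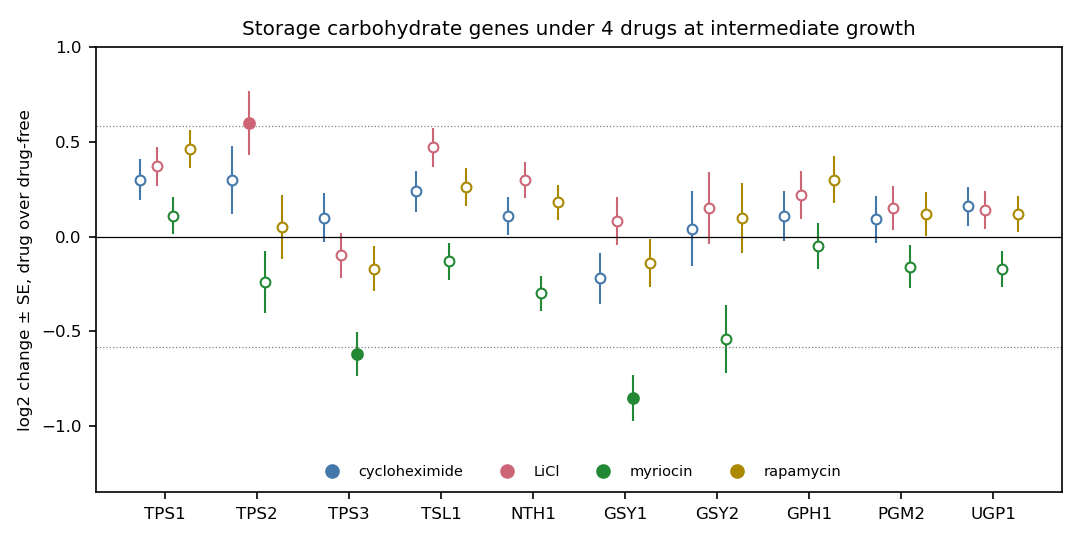
Log2 change (y axis, ± SE) of the 10 genes (x axis) in single-drug wells at intermediate growth over drug-free lower-density wells, coloured by drug. Filled circles passed both thresholds and dotted lines mark 1.5-fold: TPS2 is above the upper line under LiCl, and TPS3 and GSY1 are below the lower line under myriocin.

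The rest of the pathway was a list of 17 tested genes with branching, debranching, priming, hexokinase and regulatory roles. Under LiCl GIP2, a regulatory subunit of the Glc7 phosphatase, rose (log2 0.77) and PGM1, the minor phosphoglucomutase, fell by 0.88 on the log2 scale. PGM2 had a log2 difference of 0.15 (SE 0.118). Under myriocin GAC1, another Glc7 subunit that acts on glycogen synthase, and GLG1, a glycogenin that primes glycogen, fell by 0.89 and 0.69. GAC1 fell by 1.01 under rapamycin, and none of the 17 was called under cycloheximide. Of 14 well-known STRE target genes, 4 rose under myriocin, 7 under LiCl, 6 under cycloheximide and 5 under rapamycin, and none fell.

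The drugs were then set against each other in 6 comparisons. Against LiCl, 5 of 10 genes were lower under myriocin, where 14.2% of all features were called and 7.66% were lower. They were GSY1 (log2 -0.93), TPS2 (-0.83), GSY2 (-0.70), NTH1 (-0.60) and TSL1 (-0.59). TPS3 had a difference of -0.52 (adjusted p = 0.000358). Only the LiCl-myriocin grid held both drugs, with 7 myriocin and 2 LiCl wells. Each of the 10 genes was lower there under myriocin. With OD600 as a further term, or without batch terms, only 1 of the 10 was called. Of the 17 pathway genes GLC3, the branching enzyme (-0.64), GLG1 (-0.66) and YFR017C (-0.63) were lower and PGM1 (1.05) was higher under myriocin. Against cycloheximide, TPS3 (-0.72) and GSY1 (-0.63) were lower under myriocin, where 4.65% of features were called and 2.37% were lower, and GSY1 had -0.57 and TPS3 -0.39 without batch terms, both under the limits. GDB1, the glycogen debranching enzyme, was also lower there (-0.65). Only the cycloheximide-myriocin grid held both of these drugs, with 1 well each, and the differences there were -0.84 for TPS3 and -0.18 for GSY1. Against myriocin, GSY1 (0.70) and GSY2 (0.64) were higher under rapamycin, where 11.3% of features were called and 5.5% were higher. Within the myriocin-rapamycin grid, the only one with both, GSY1 had 0.47 and GSY2 0.55, each under the fold limit. GSY2 lost its call without batch terms (0.30), with an OD600 term (0.42) and without shallow libraries (0.56). GLC3 (0.76), GLG1 (0.87), GDB1 (0.77) and ATH1, the acid trehalase (0.67), were higher and PGM1 (-0.68) was lower under rapamycin than under myriocin. ATH1 was also higher under rapamycin than under cycloheximide (0.60). No member was called in LiCl over cycloheximide, rapamycin over cycloheximide or rapamycin over LiCl, where 6.98%, 6.26% and 12.1% of features were called. Only the cycloheximide-LiCl grid held LiCl and cycloheximide, with 2 wells each, and there each of the 10 genes was lower under LiCl. The differences ran from -0.93 for GSY2 to -0.14 for GSY1.

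Across myriocin doses both glycogen synthase genes fell with growth inhibition. In the LiCl-myriocin grid, which spans drug-free growth to near arrest, GSY1 had a signal of 450 and 519 in 2 drug-free wells, 307 to 442 in 5 mildly inhibited wells of the lower set, 200 to 330 in 4 intermediate wells of that set and 85.3 to 194.4 near arrest. GSY2 had 215 and 236 in the drug-free wells, 191.5 to 291 in the mild, 99.9 to 215 in the intermediate and 85.3 to 145 in the near-arrest wells of the same set. Its mild wells reached above the drug-free ones. On a line fitted to growth inhibition with OD600 and set in the model, GSY1 fell by 1.00 on the log2 scale at a relative growth of 0.5 (SE 0.134, adjusted p = 1.19e-05). GSY2 fell by 0.86 (SE 0.135, adjusted p = 5.76e-05). These were 2 of 10 members, with 15.3% of features called and 7.24% lower. Without the near-arrest wells, which leaves relative growth of 0.35 and above, the changes were -0.86 and -0.89, and both were still called. TPS1 had the smallest slope value, -0.14 (adjusted p = 0.296). The other 7 had values from -0.58 to -0.24 with adjusted p under 0.05. Without the near-arrest wells GPH1 had -0.11, PGM2 -0.25 and TPS3 -0.30, against -0.55, -0.57 and -0.58 with them. GLC3 (-1.07), GAC1 (-1.5), ATH1 (-1.06), GLG1 (-0.91), GDB1 (-0.69), PIG2, a further Glc7 subunit (-0.79), and the glycogen-related YFR017C (-0.82) also fell, 7 of the 17 listed pathway genes.

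**Figure D3:**
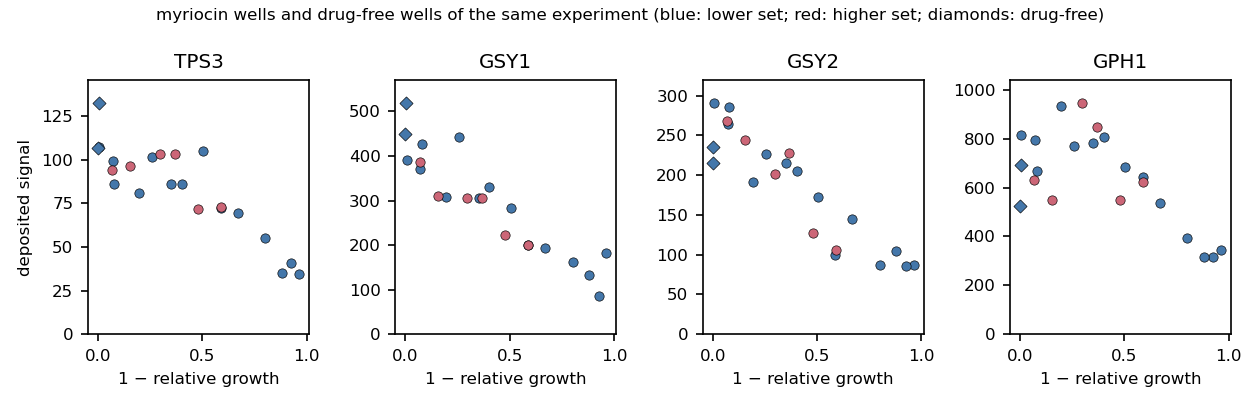
Deposited signal (y axis, linear) of TPS3, GSY1, GSY2 and GPH1 against growth inhibition (x axis, 1 minus relative growth) in myriocin wells (circles) and drug-free wells (diamonds) of the LiCl-myriocin experiment, blue for the lower and red for the higher growth-reference set. GSY1 declines from 450 and 519 in drug-free wells toward 85.3 to 194.4 near arrest, while GPH1 stays at 523 or more until the 5 near-arrest wells, of which the highest is at 538.

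Near arrest, GPH1 and PGM2 fell as well. The 5 near-arrest wells had a GPH1 signal of 345, 316, 317, 392 and 538, against 549.5 to 850 in the 7 intermediate myriocin wells of the same grid. In this grid the groups did not overlap, but intermediate myriocin wells of other grids reached down to 340. GPH1 fell by 0.96 on the log2 scale (SE 0.143, adjusted p = 0.00101, limma). TPS3 had 34.6, 40.8, 35.1, 55 and 69.6 near arrest, against 71.6 to 105 in the same 7 intermediate wells. These groups did not overlap either. The intermediate myriocin well of the cycloheximide-myriocin grid (38.4) lay within the near-arrest range. TPS3 fell by 0.92, GSY1 by 0.91, PGM2 by 0.89 and GSY2 by 0.73, so 5 of 10 members were lower, with 11.5% of features called and 5.78% lower. TPS1 had -0.20 (SE 0.113, adjusted p = 0.239) and NTH1 -0.23 (adjusted p = 0.243). Among the other pathway genes 8 of 17 fell, namely GLG1 (-1.31), GDB1 (-1.08), PIG2 (-1.08), YFR017C (-1.08), GLC3 (-1.01), the hexokinase HXK1 (-0.84), GIP2 (-0.78) and EMI2, a hexokinase paralogue (-0.66), and 6 of 14 STRE target genes fell. The near-arrest wells had an OD600 of 0.199 to 0.494 and depths of 127812 to 281769 reads, against an OD600 of 0.412 to 0.697 in the intermediate wells, and the part of density and depth in the result was not tested.

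The LiCl doses in the LiCl-rapamycin grid gave the opposite sign. On the same kind of line NTH1 rose by a log2 of 0.65 (SE 0.0956, adjusted p = 1.08e-05), TPS2 by 0.74 (adjusted p = 0.000153), TSL1 by 0.63 (adjusted p = 0.000131) and GPH1 by 0.74 (adjusted p = 5.49e-05). These were 4 of 10, with 7.16% of features called and 2.91% higher. TPS2 had 314 to 409 in the 3 intermediate LiCl wells of the lower set, 207 to 290 in the 9 mild wells of that set and 219 in the drug-free well. One well decided these calls. Without LiCl replicate 5 at intermediate growth, whose OD600 of 0.76 was high for its set, none of the 4 was called and 78 features were called in place of 359. The values without it were 0.71 for TPS2, 0.45 for TSL1, 0.35 for NTH1 and 0.32 for GPH1. Without the OD600 term TPS2 alone was called. Of the 17 pathway genes GDB1 (0.92), GIP2 (0.94) and YFR017C (0.74) rose and PGM1 fell by 0.97, and 8 of 14 STRE target genes rose.

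**Figure D4:**
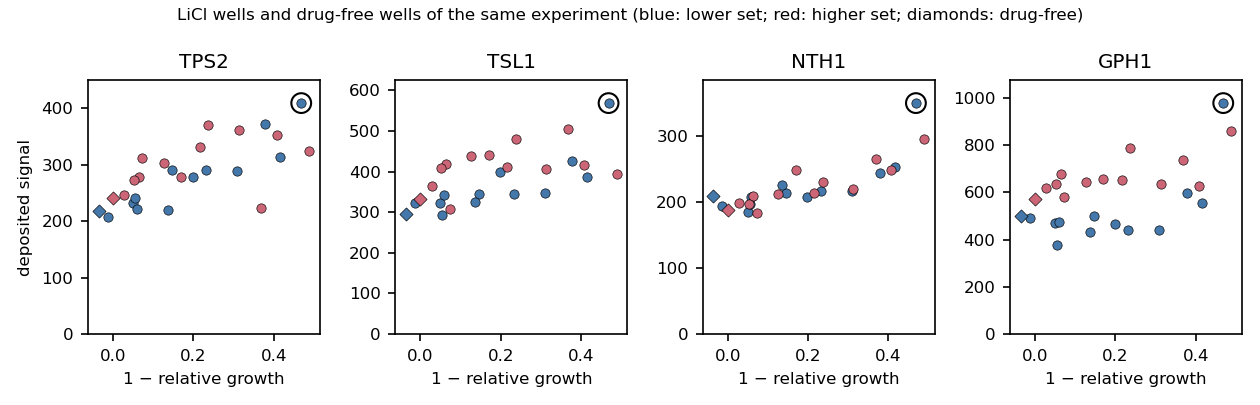
Deposited signal (y axis, linear) of TPS2, TSL1, NTH1 and GPH1 against growth inhibition (x axis, 1 minus relative growth) in LiCl wells (circles) and drug-free wells (diamonds) of the LiCl-rapamycin experiment, blue for the lower and red for the higher growth-reference set. The ringed well is LiCl replicate 5, which has the highest signal of each panel; the GPH1 wells of the higher set lie mostly above those of the lower set.

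No member was called along the cycloheximide or the rapamycin doses, where 6.54% and 7.78% of features were called. GSY1 had values of -0.31 (adjusted p = 0.00789) along cycloheximide and -0.32 (adjusted p = 0.017) along rapamycin, and NTH1 had 0.29 (adjusted p = 0.00676) along rapamycin. GAC1 (-1.02) and PGM1 (-0.60) fell along rapamycin.

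Density was also compared in wells whose growth no drug had slowed. In drug-free wells none of the 10 was called between higher and lower density, and no feature of the 5015 was (0%, limma, with 161 at an unadjusted p under 0.05). GSY2 had the largest log2 difference, 0.38 (SE 0.268), with 142, 191.6 and 206 in the 3 higher-density wells and 77.6 to 354 in the 8 lower-density wells. The experiments differed, with GSY2 at 0.87, GPH1 at 0.69, TPS2 at 0.62, GSY1 at 0.59 and PGM2 at 0.55 in the cycloheximide-LiCl grid, from -0.11 to 0.23 for the 10 genes in the cycloheximide-rapamycin grid and from -0.16 to 0.32 in the LiCl-rapamycin grid, with 1 well on each side. All higher-density drug-free wells belonged to the higher set and all lower-density ones to the lower set, so the set term in this fit rests on the drugged wells. The low rapamycin doses gave 7 pairs of wells at the same dose, with an OD600 of 1.32 to 1.99 in the higher set and 0.57 to 0.758 in the lower set. GPH1 had 598, 672 and 725 in the higher set and 405, 445 and 661 in the lower set, and was higher at 7 of 7 doses. Its log2 difference was 0.48 (SE 0.065, adjusted p = 4.95e-05). GSY2 (0.34, adjusted p = 0.00633), TPS2 (0.28, adjusted p = 0.0107) and PGM2 (0.27, adjusted p = 0.00529) were each higher at 6 of 7 doses. None reached 1.5-fold (GAC1, of the pathway list, did, at 0.70), so 0 of 10 were called, with 3.21% of features called. Density and growth-reference set cannot be told apart in these wells. Per doubling of OD600 along the LiCl doses GPH1 had 0.52 (adjusted p = 0.0484) and PGM2 0.45 (adjusted p = 0.0495), with 0 of 10 called and 0.977% of features called, and GDB1 rose by 0.89. The density terms along the other drugs called 0 of 10 (0.0199% of features for cycloheximide, 0% for myriocin and 0.339% for rapamycin). The higher against the lower set at intermediate growth also called 0 of 10 (0.0199% of features).

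Mixtures at reduced growth were then set against drug-free wells. Every mixture well belonged to the higher growth-reference set and every one of these drug-free wells to the lower set, so within a grid the mixture and the set cannot be told apart against these wells. LiCl with myriocin called 2 of 10 members, with 13.5% of features called, 7.42% higher and 6.04% lower. TPS1 rose by a log2 of 0.62 (SE 0.113, adjusted p = 6.24e-06), with 316, 504 and 708 in 26 mixture wells, against 260, 284 and 322 in drug-free wells. GSY1 fell by 0.78 (SE 0.139, adjusted p = 4.05e-06), with 234, 288 and 403 in mixture wells, against 209, 442 and 519 in drug-free wells. For TPS1 only the lowest mixture well lay within the drug-free range, and for GSY1 the ranges overlapped. Within the LiCl-myriocin grid alone the changes were 0.74 and -0.73. Without batch terms GSY1 had -0.48 and was not called. GIP2 rose (0.82), and HXK2, the main hexokinase on glucose (-0.71), and GAC1 (-1.22) fell. In the other 5 mixtures 0 of 10 were called, with 6.36% of features called for cycloheximide with LiCl, 9.41% for cycloheximide with myriocin, 5.12% for cycloheximide with rapamycin, 6.2% for LiCl with rapamycin and 4.11% for myriocin with rapamycin. In LiCl with rapamycin TSL1 (0.48), GPH1 (0.46), TPS1 (0.45) and NTH1 (0.38) passed the p threshold alone, while GIP2 (0.92), YFR017C (0.69) and GDB1 (0.66) rose. PCL8, a Pho85 cyclin, fell in cycloheximide with myriocin (-1.11) and GAC1 in cycloheximide with rapamycin (-1.14).

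A mixture was also compared with both of its single drugs, taking the smaller of the differences where both had the same sign and 0 otherwise. None of the 10 was called in any of the 6 pairs, where at most 0.339% of features were. The lowest value was GPH1 in cycloheximide with rapamycin, -0.42 (adjusted p = 0.0496), which was -0.28 within that grid and -0.05 without batch terms, and the highest was TPS1 in LiCl with myriocin (adjusted p = 0.888). TPS1 in LiCl with myriocin was 0.25 (SE 0.107) above LiCl alone and 0.51 (SE 0.0827) above myriocin alone. Within the LiCl-myriocin grid, which holds all the mixture wells, TPS1 averaged 492.5 in the mixture and 509 in the 2 LiCl wells (log2 difference -0.08), and all 10 genes were lower in the mixture than under LiCl, so the direction against LiCl turned.

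More members were called along the composition of a mixture. Each dose was scaled to that drug's dose at intermediate growth, and the second drug's share of the summed scaled doses was used as the axis, with relative growth as a further term. A slope is the log2 change over a share from 0 to 1. In LiCl with myriocin 8 of 10 members fell as the myriocin share grew, with 14.9% of features called and 7.32% lower. TPS1 had 533 (lowest), 592 (median) and 708 (highest) in 9 wells with a myriocin share under 0.5, and 316, 434 and 543 in 17 wells with more. The slope was -1.09 (SE 0.138, adjusted p = 5.1e-07). TPS2 had the steepest slope, -1.40 (SE 0.208, adjusted p = 5.18e-06). NTH1 (-0.81), PGM2 (-0.75), TSL1 (-0.73), TPS3 (-0.66), GSY1 (-0.66) and UGP1 (-0.63) fell too. GPH1 had -0.58 (adjusted p = 6.75e-05), just short of 1.5-fold, and GSY2 -0.56 (SE 0.257, adjusted p = 0.132). Without the growth term GSY1 had -0.55 and lost its call, while GPH1 had -0.63 and gained one. Of these wells 7 had the same myriocin share, 0.87. OD600 had a median of 0.532 in the wells with more myriocin and 0.671 in those with less. LiCl ran from 2346 to 17853 µg/ml and myriocin from 0.163 to 0.962 µg/ml. The summed dose was not a term in the fit, and its part was not tested. With 1 well left out at a time, 6 to 9 genes were called.

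Along the same axis PCL8 (-1.16), YFR017C (-1.0), ATH1 (-0.95), NTH2, the NTH1 paralogue (-0.91), GIP2 (-0.71) and GDB1 (-0.61) fell, while PGM1 (1.35) and HXK2 (0.93) rose. That made 6 lower and 2 higher of 17, and 10 of 14 STRE target genes fell.

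LiCl with rapamycin gave a narrower pattern. TPS2 and GSY2 fell as the rapamycin share grew, 2 of 10, with 18.3% of features called and 8.45% lower. TPS2 had 211, 366 and 735 in 10 wells with a rapamycin share under 0.5, against 188.9, 228 and 262 in 8 wells with more, and a slope of -1.77 (SE 0.212, adjusted p = 2.23e-07). GSY2 had 159, 254 and 712, against 146, 178.1 and 205, and a slope of -1.38 (SE 0.298, adjusted p = 0.00109). The highest value of both genes was the same well, replicate 2. OD600, not a term in the fit, had a median of 0.690 under a share of 0.5 and 0.611 in the other wells. Over the wells left out in turn, the slopes ran from -1.95 to -1.54 for TPS2 and from -1.53 to -0.95 for GSY2, and both calls held. TPS1 (-0.07), PGM2 (-0.08), UGP1 (-0.11) and GPH1 (-0.12) had slopes near 0 with adjusted p of 0.522 or more. Of the 17 pathway genes GAC1 (-1.77) and GIP2 (-1.06) fell.

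**Figure D5:**
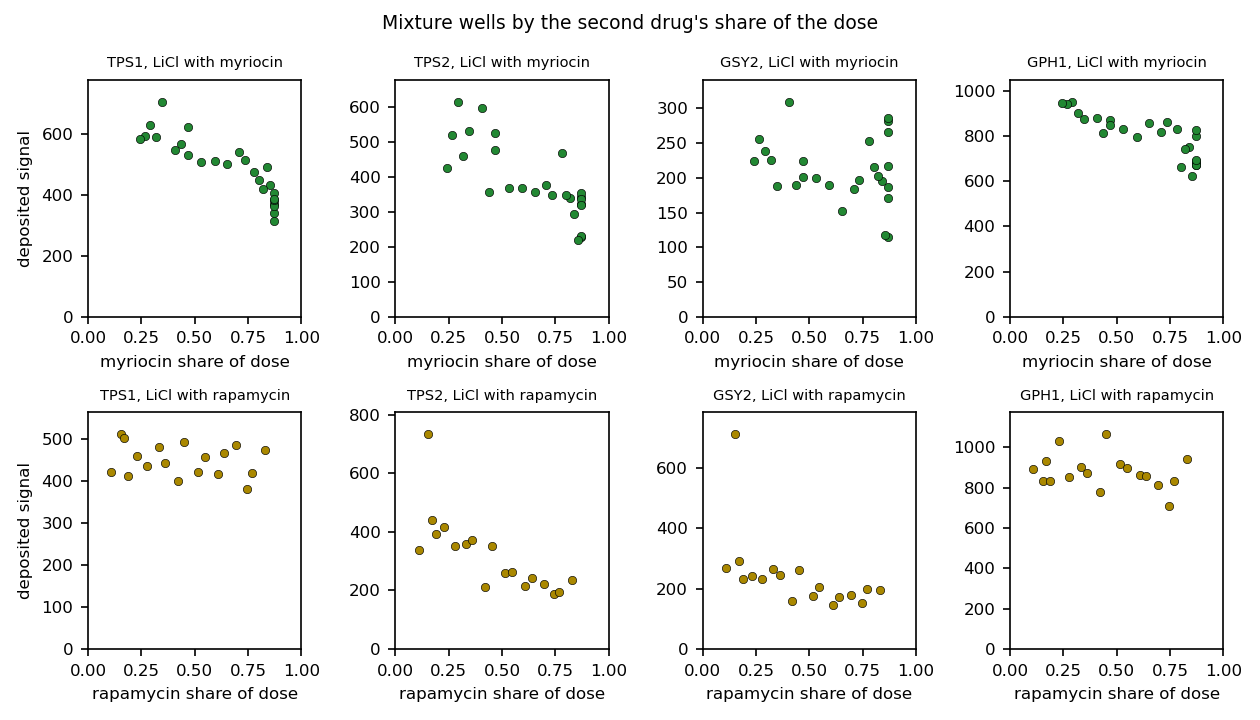
Deposited signal (y axis, linear) of TPS1, TPS2, GSY2 and GPH1 in mixture wells against the second drug's share of the scaled dose (x axis, 0 to 1), with LiCl plus myriocin above and LiCl plus rapamycin below. TPS1 declines in the upper row and shows no slope in the lower row, TPS2 declines in both, and 1 LiCl-rapamycin well has the highest TPS2 (735) and GSY2 (712).

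In the remaining pairs 1 member each was called. TPS2 rose with the LiCl share in cycloheximide with LiCl (0.66, adjusted p = 1.3e-06, 17.7% of features called, 8.77% higher), and GSY1 had 0.43 (adjusted p = 0.000664). GSY1 fell with the myriocin share in cycloheximide with myriocin (-0.72, adjusted p = 0.00179, 6.36% of features called, 3.21% lower). TPS3 fell with the rapamycin share in cycloheximide with rapamycin (-0.66, adjusted p = 0.00339, 15.9% of features called, 8.12% lower). In that pair OD600, not a term in the fit, had a median of 0.685 under a share of 0.5 and 0.512 in the other wells. GSY2 rose with the rapamycin share in myriocin with rapamycin (1.26, adjusted p = 0.0037, 7.96% of features called, 3.99% higher). Without the growth term that last value was 0.25 and was not called. The raw median of GSY2 was 164 both under and over a share of 0.5. Median OD600 in myriocin with rapamycin was 0.679 under that share and 0.558 in the other wells. Of the 17 pathway genes GIP2 (1.01) rose and PIG2 (-0.61) fell with the LiCl share, PIG2 (-1.61) fell with the myriocin share, NTH2 (-0.85) and GAC1 (-1.38) fell with the rapamycin share against cycloheximide, and GLG1 (1.19), GDB1 (1.13) and GLC3 (0.94) rose with the rapamycin share against myriocin.

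Set side by side over all 18 groups, the order of levels differed between the genes. Each mixture comes from 1 grid, so group and experiment are mixed in these orders and they describe the wells, not the drugs. GSY1 was lowest near myriocin arrest (median 162), followed by myriocin alone (246) and the mixtures with myriocin (281 with rapamycin, 283 with cycloheximide and 288 with LiCl), and was highest in mild rapamycin (490). TPS1 was lowest in cycloheximide with LiCl (273) and highest in LiCl with myriocin (504), just above LiCl with rapamycin (449). GPH1 was lowest in cycloheximide with LiCl (292) and highest in LiCl with rapamycin (867). In the cycloheximide-LiCl grid the mixture averaged 293 for GPH1 and 278 for TPS1, above LiCl alone (234 and 248) and the drug-free well (208 and 260) but below cycloheximide alone (378 and 301). TPS2 had its lowest median near myriocin arrest (164) and its highest in LiCl with myriocin (357). Neighbours in these orders had overlapping ranges, apart from GSY1 and TPS3 near arrest. The highest GSY1 well near arrest (194.4) lay below the lowest well of myriocin at intermediate growth (200). TPS3 near arrest (34.6 to 69.6) lay below cycloheximide with LiCl. It overlapped groups further up its order, such as myriocin at intermediate growth (lowest well 38.4) and drug-free lower-density wells (lowest 61.3). Between the 5th and 95th percentile of the 238 libraries, GPH1 spanned 3.36-fold, GSY2 3.07-fold and NTH1 1.79-fold.

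As a description, the 45 pairs of members had Pearson correlations of 0.30 to 0.95 (median 0.68) over the 238 libraries, which share experiments and doses. GPH1 and PGM2 were the most alike (0.95), and TPS1 and GSY1 the least (0.30). With group, experiment and set means removed, the range was 0.28 to 0.85 and GPH1 with PGM2 had 0.85. The genes outside the list most like the mean of the members were YFR017C (0.881), GAD1, glutamate decarboxylase (0.875), GDB1 (0.871), YFR052C-A (0.855) and RGI1 (0.854). For single members, the most similar gene was TSL1 for TPS1 (0.833) and NTH1 (0.829), OSH2 for TPS2 (0.782), SDS24 for TPS3 (0.751), UGP1 for TSL1 (0.852), LSP1 for GSY1 (0.815), MDG1 for GSY2 (0.816), YFR052C-A for GPH1 (0.953), and GPH1 for PGM2 (0.95) and UGP1 (0.896).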

How the data were processed

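Poly(A) RNA was sequenced from 238 wells. Per the submitters' processing notes, TopHat, UMI-tools, featureCounts and the R64 build were used, with no versions stated. The deposited signal values, made by the authors, share 1 largest value, 17026.2, in every column and columns sum to 595180 to 596851, so they were treated as a quantile-normalised signal, not counts. Depth was estimated from the value at the rank of 30 reads, taking each distinct low value as 1 further read. Groups came from the labelled doses and relative growth. Features with a mean of at least 10 were tested with limma 3.58.1 (R 4.3.3) on log2(signal + 1), with terms for experiment and growth-reference set, at an adjusted p under 0.05 and 1.5-fold. Gradient fits had growth inhibition, log2 OD600 and set, and mixture slopes had dose share and relative growth. Such a fold understates the change of low values. The method was tested on simulated data. Members, gene lists and tests were chosen with earlier results of these data known. All 10 members were to be named, with other storage genes where called, and the genes most like the member mean (the top 5) and like each member (the top 1). Alternatives were a pseudocount of 10, no filter, no shallow libraries (under 0.25 of the median depth), other terms, and single wells left out; fits within a pair's own experiment and the single wells left out of the LiCl and myriocin gradients and of the LiCl mixture slopes were chosen after seeing the data.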

Additional observations from a re-analysis of the deposited data

Results flagged for a closer look

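Among 60 sets of wells examined, 6 had 1 value far from the others, where chance gives about 1 in 20 for independent sets. The sets are the 10 genes in the same groups of wells, so they are not independent and that rate does not apply. In 10 cycloheximide wells at intermediate growth, replicate 4 was far above the rest for TPS2 (411, against 228 to 306 in the others) and for GSY2 (271). In 8 drug-free lower-density wells, replicate 6, the well of the cycloheximide-LiCl grid, was far below the rest for TPS3 (61.3), NTH1 (159), GSY1 (209) and UGP1 (263). By a test between drugs with batch terms, the effect also differed in 9 cases. Myriocin was lower than cycloheximide for TPS3 (log2 -0.72) and GSY1 (-0.63). Myriocin was lower than LiCl for TPS2 (-0.83), TSL1 (-0.59), NTH1 (-0.60), GSY1 (-0.93) and GSY2 (-0.70). Rapamycin was higher than myriocin for GSY1 (0.70) and GSY2 (0.64). Each pair of drugs shared a single grid, so these tests drew on wells of other grids through the batch terms. Without batch terms only GSY1 kept its call, in myriocin over LiCl (-0.77) and in rapamycin over myriocin (0.60).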

How the results depend on the processing

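Of 313 recounts of called members, 271 stayed within 1.5 times the reported count. The 271 include comparisons that had 0 called members and kept 0, and refits with 1 well left out. They are therefore not a measure of how stable the calls were. The other 42 came from 16 comparisons. No batch terms gave 0 called members for LiCl, 1 for myriocin, 3 lower for cycloheximide with LiCl (4 against both single drugs), 3 higher for LiCl with rapamycin, 0 for myriocin over cycloheximide, 1 for myriocin over LiCl and 1 for rapamycin over myriocin. It also put TPS3 in LiCl with myriocin at 0.00. An OD600 term gave 0 for LiCl, 1 for myriocin, 1 for cycloheximide with LiCl, and 1 each for myriocin over cycloheximide, myriocin over LiCl and rapamycin over myriocin. A pseudocount of 10 gave 0 for LiCl, 1 for myriocin and 3 for myriocin over LiCl. Pooling all drug-free wells gave 0 for LiCl and 1 for cycloheximide with myriocin. Without shallow libraries 1 was called in each of LiCl over cycloheximide, cycloheximide with myriocin, myriocin over cycloheximide, rapamycin over LiCl, myriocin with rapamycin and rapamycin over myriocin, and 4 along myriocin doses. Within a pair's own experiment 1 was called for cycloheximide with LiCl, 2 for cycloheximide with myriocin and 1 for LiCl with rapamycin. Along LiCl doses 1 was called without the OD600 term. Along myriocin doses 4 were called without it, 5 in the lower set alone and 4 without drug-free wells. Leaving out single wells gave 0 to 5 along LiCl (UGP1 from -0.01 to 0.44) and 2 to 5 along myriocin. Without the growth term 4 were called in cycloheximide with rapamycin and 0 in myriocin with rapamycin. The causes were not tested. Over all features, no batch terms gave 276 calls against 153 for cycloheximide, 1163 against 319 for cycloheximide with LiCl (386 against 0 over both single drugs), 483 against 257 for cycloheximide with rapamycin, 434 against 206 for myriocin with rapamycin, 619 against 233 for myriocin over cycloheximide, and 170 against 17 for LiCl with myriocin over both single drugs, where the pair's own experiment gave 2. A pseudocount of 10 gave 98 for cycloheximide, 295 against 528 for LiCl, 232 against 464 for myriocin, 3.67% of features against 6.84% for rapamycin, 374 against 712 for myriocin over LiCl, 296 against 565 for rapamycin over myriocin, 282 against 606 for rapamycin over LiCl, 201 against 350 for LiCl over cycloheximide, 3.83% of features against 6.26% for rapamycin over cycloheximide, 140 for myriocin over cycloheximide, 71 against 161 for the low rapamycin doses, and 211 against 328 and 213 against 390 along cycloheximide and rapamycin doses. Within a pair's own experiment the calls were 282 against 472 for cycloheximide with myriocin, 77 for cycloheximide with rapamycin, 30 against 311 for LiCl with rapamycin and 29 for myriocin with rapamycin. The lower set alone gave 93 along cycloheximide, growth of 0.35 and above gave 3.69% of features against 15.3% along myriocin, and no growth term gave 944 against 399 in myriocin with rapamycin. Without shallow libraries 3.61% of features against 6.36% were called for cycloheximide with LiCl, and 539 features against 359 along LiCl. Leaving out LiCl replicate 5 gave 78 along LiCl. Drug-free density called 20 features with an OD600 term and 52 with experiment as a block, none of them a member. Shallow libraries limit the precision of low values.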
